A study of Mus musculus with 9 samples.

Results

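Cells that held at least 2 unique molecular identifiers (UMIs, tags that each mark 1 captured RNA molecule) of Gpr17 and none of Mog were described in the dentate gyrus (DG), the part of the hippocampus in which new neurons form in adult mice. Of the 2437 cell barcodes from the DG, 2027 had at least 1500 UMIs with at most 10% of them from mitochondrial genes, and 441 of these met the rule and are called Gpr17-high cells here. They comprised 29 of 702 cells from adult mice (3 months), 300 of 1035 from middle-aged mice (14 months) and 112 of 290 from aged mice (24 months). They were compared with 482 reference cells from the same libraries, which had at least 1 UMI of Pdgfra and at most 1 of Gpr17 and numbered 20, 364 and 98 in the same order. All mice were heterozygous for Dcx-GFP, a green fluorescent protein made under the promoter of the neuroblast gene Dcx, and all cells were sorted for GFP without any further treatment. The tissue of 4 to 5 mice was pooled for each age and 1 droplet-based 3′ library was made from it, so the age groups have no replicates. By the study's methods the sexes were balanced between age groups. The level of Xist, an RNA of female cells, nevertheless differed between the DG libraries, as given below. The study also holds libraries of the subventricular zone (SVZ) and olfactory bulb (OB) at each age, and its 9 libraries comprise 7402 barcodes.

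Oligodendrocytes, the cells that wrap axons in myelin, arise from oligodendrocyte precursor cells (OPCs), which divide in response to platelet-derived growth factor through the receptor Pdgfra. A precursor that leaves the cell cycle passes through a committed stage in which Gpr17, an orphan G protein-coupled receptor of the plasma membrane, is transiently high, before Enpp6 and then the myelin genes are switched on. In the adult hippocampus OPCs remain present throughout life, and few of them are in the committed stage at any time.

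The depth of both classes was similar. The median Gpr17-high cell had 4698 UMIs at 3 months, 4931.5 at 14 and 5535 at 24, and the median reference cell had 4404, 4753 and 5417.5. Summed over cells, the Gpr17-high cells held 129093, 1513251 and 617844 UMIs and the reference cells 90567, 1744195 and 501299. The middle-aged library therefore carried most of the molecules and the adult library the fewest. Another 6 DG cells with at least 2 UMIs of Gpr17 held Mog, a protein of mature myelin, and were left out by the rule. A doublet caller (Scrublet) marked 0 of the adult, 6 of the middle-aged and 19 of the aged Gpr17-high cells, against 0, 9 and 10 reference cells. The adult and middle-aged DG libraries shared 2 barcodes, none of them of a Gpr17-high cell.

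Gpr17 set the classes, so its level is a description. It was at 798 CPM (counts of the gene scaled to 1000000 UMIs) in the Gpr17-high cells at 3 months, 642 at 14 months and 738 at 24 months, and at 110, 101 and 114 CPM in the reference cells. Most members were near the threshold, since 201 of the 441 held exactly 2 UMIs and 153 held 3 to 4, while 71 held 5 to 9 and 16 held 10 to 20. Pdgfra, which chose the reference cells but not the Gpr17-high cells, was found in 416 of the 441, or 94.3% (95% Clopper-Pearson interval 91.7 to 96.3). Its level in the Gpr17-high cells was 953, 769 and 952 CPM from adult to aged mice, against 1126, 842 and 916 CPM in the reference cells. Counts of individual cells are spread over both classes without a gap between 1 and 2 UMIs, as the plot of Gpr17 per cell shows.

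**Figure D1:**
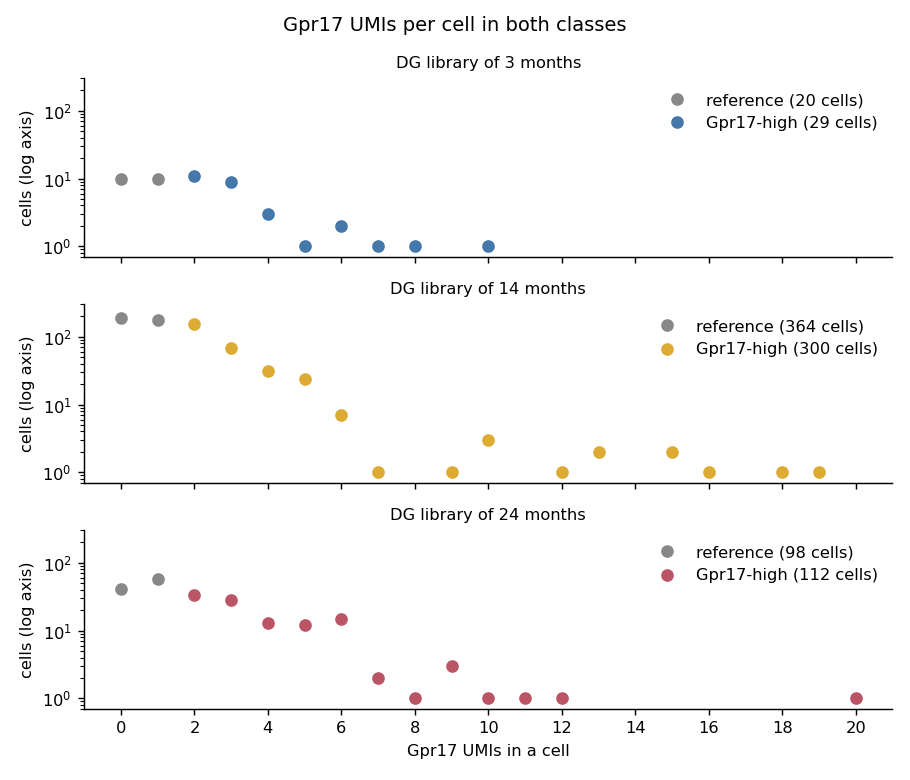
Number of cells (log axis) at each count of Gpr17 UMIs (horizontal axis), for reference cells in grey and Gpr17-high cells in colour, with 1 panel for each DG library. No gap separates the classes at 1 and 2 UMIs, and a thin tail of 16 cells reaches 10 to 20 UMIs.

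The label of committed precursors was checked against the markers of the lineage. Olig2, a transcription factor of the whole oligodendrocyte lineage, was found in 98.4% of the Gpr17-high cells and Sox10, another, in 87.3%, against 3.57% and 1.5% of 532 DG cells that had Gjb6, an astrocyte gene, and no UMI of Gpr17, Pdgfra or Mog. Cspg4, the NG2 proteoglycan of OPCs, was found in 73.9% against 0.752% of those astrocyte-gene cells. Lims2, the committed-stage gene that encloses Gpr17 in the genome, was also found in 73.9%, against 2.82% of the astrocyte-gene cells, whose median depth of 4114 UMIs was below the 5050 of the Gpr17-high cells. Enpp6, which marks newly forming oligodendrocytes, was found in 7 of 441 cells (1.59%). The Gpr17-high cells as a whole thus held the genes of OPCs, and are named here by the rule and not by a stage. Dcx, whose promoter drives the GFP used for sorting, was found in 19.0% of Gpr17-high and 19.1% of reference cells, and in 1.69% of the astrocyte-gene cells. When each cell was thinned to 1500 UMIs, these 3 shares were 5.44%, 6.64% and 0.940%.

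Cells just inside and just outside the threshold are described by the same genes. With exactly 2 Gpr17 UMIs, Lims2 was at 383 CPM and Pdgfra at 862 CPM, and with exactly 1 UMI, in 244 reference cells, they were at 395 and 923 CPM. The Pdgfra level outside was set in part by the rule, which asked for a Pdgfra UMI in reference cells. Fyn was at 141 CPM inside and 125 CPM outside, Mycl at 69.8 and 44.4 CPM, and Bmp4 at 19.8 and 8.54 CPM. The intervals of the ratio were clear of 0 on the log2 scale for Mycl (0.11 to 1.2) and Bmp4 (0.04 to 2.48) and included 0 for Lims2 and Fyn. Those 2 were the only ones of the 16 committed-stage markers other than Gpr17 with an interval above 0, and none was below, where 1.92% of the 12114 genes tested in the DG were above 0 and 2.12% below.

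The 16 cells with 10 or more Gpr17 UMIs stood apart from the other 425, a division made after the values were seen and therefore given without a test. One came from the adult, 11 from the middle-aged and 4 from the aged library. Their median depth was 7252 UMIs and they held 5.42% of all UMIs of the Gpr17-high cells. Lims2 was found in all 16 and reached 2358 CPM, against 398 CPM in the cells with 2 to 9 Gpr17 UMIs (95% Poisson intervals 2094 to 2646 and 372 to 426). Fyn, a Src family kinase that acts in oligodendrocyte morphogenesis, was at 1876 against 157 CPM. Bmp4, a secreted growth factor made by committed precursors, was at 392 against 18.2 CPM, and Mycl, a Myc family transcription factor, at 514 against 77.2 CPM. These 4 genes were between 5.92-fold (Lims2) and 21.5-fold (Bmp4) higher in the 16 cells. Of the 16 committed-stage markers other than Gpr17, 9 had a ratio with a counting interval above 0 on the log2 scale and none below it. By the same measure 4.97% of the 12114 genes tested in the DG were above 0 and 3.46% below. These intervals leave out the spread between cells, and the shares over all genes are not matched to the markers for abundance. Neu4 was at 685 against 485 CPM, Sox4 at 489 against 449 CPM and Nfasc at 48.9 against 63.6 CPM.

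Myelin genes were divided in this respect, with 4 of 15 above 0 by the same measure and none below. Cnp, an enzyme of the myelin sheath, was at 2692 CPM in the 16 cells and 295 CPM in the others, and Mbp, the basic protein of myelin, at 734 and 32.7 CPM, with 62 of the 90 UMIs in 1 of the 16 cells. Ugt8a, an enzyme of myelin lipid synthesis, was at 65.3 and 83.7 CPM, and Gjb1, a connexin, at 16.3 and 33.7 CPM. Of the 30 UMIs of Enpp6, 28 were in 5 of the 16 cells. Of 15 OPC markers other than Pdgfra, 12 had an interval below 0 by this measure and none above, and those of Susd5 (log2 ratio 0.50), Gpr37l1 (−0.079) and Megf11 (−0.35) included 0. Pdgfra was at 261 against 862 CPM and Cspg4 at 147 against 303 CPM. Id2, an inhibitor of differentiation outside that list, was at 48.9 against 463 CPM. Sox10 was at 457 against 487 CPM, so that this lineage gene was at a like level in both. No Pdgfra UMI was found in 11 of the 16 cells, while it was found in 411 of the 425.

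The 16 cells were not uniform either. Gpr17 ranged from 10 to 20 UMIs with a median of 12.5, Lims2 from 5 to 40, Cnp from 0 to 125 and Fyn from 0 to 61. A middle-aged cell with 12 Gpr17 UMIs held 10 of Pdgfra, 5 of Lims2 and 0 of Cnp, and an aged cell with 10 held 11, 6 and 5 and was marked as a doublet. By contrast, an aged cell with 12 Gpr17 UMIs held no Pdgfra, 35 of Lims2, 9 of Enpp6, 125 of Cnp and 62 of Mbp. That cell had 15335 UMIs and was not marked as a doublet, and it alone gave 62 of the 106 Mbp UMIs and 125 of the 324 Cnp UMIs of all aged Gpr17-high cells.

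**Figure D2:**
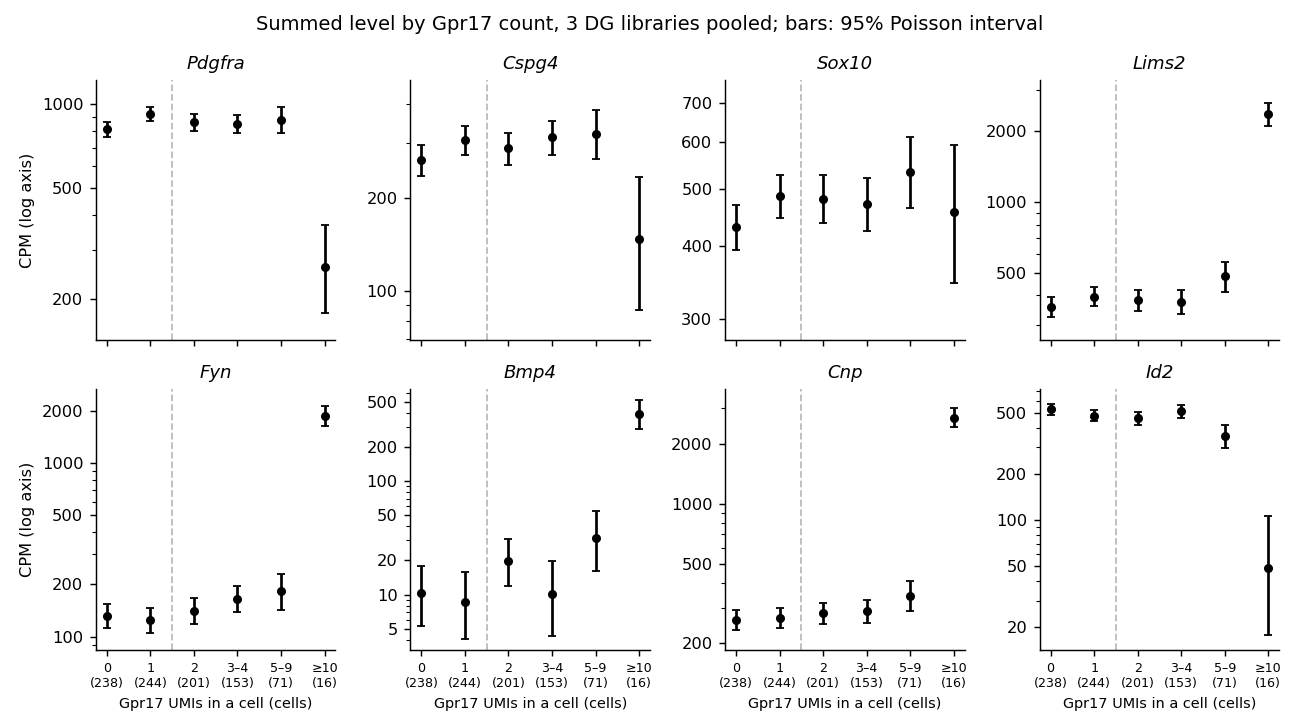
Summed level in CPM (log axes, with the range differing between panels) of 8 genes in cells grouped by their Gpr17 UMIs, pooled over the 3 DG libraries, with the number of cells in brackets and 95% Poisson intervals as bars. The dashed line separates reference from Gpr17-high cells; the 16 cells with 10 or more lie above all other groups in Lims2, Fyn, Bmp4 and Cnp and below them in Pdgfra, Cspg4 and Id2, while Sox10 stays between 430.0 and 535 CPM.

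To find genes that differed between the classes, UMIs were summed for each class and library and compared across the 3 libraries as pairs with the quasi-likelihood test of edgeR. Gpr17, Pdgfra and Mog were left out because they set the classes. Of 12114 genes tested, 29 (0.239%) were called higher and 56 (0.462%) lower in Gpr17-high cells at an adjusted p below 0.05, and 69 of the 85 had the same sign in all libraries, as had 25.1% of all genes tested. The paired test itself favours genes that agree between libraries. The residual spread between libraries was estimated with 2 degrees of freedom and was close to that of counting, so the p-values rest on the number of UMIs more than on the spread between pools of mice. Without the middle-aged library 17 genes were called, without the aged library 35, and without the adult library 77.

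Among markers of the committed stage, 5 of 16 tested genes were higher and none lower, where 0.239% of all genes were higher and 0.462% lower. Their median log2 fold change was 0.39 beside 0.00017 for all genes tested. Bmp4 was at 85.2, 39.0 and 27.5 CPM in the Gpr17-high cells at 3, 14 and 24 months and at 11.0, 9.17 and 9.97 CPM in the reference cells. It was higher in every library, and its fitted log2 fold change was 2.00 ± 0.34 (SE, 3 libraries, edgeR adjusted p = 1.89e-06). Mycl was at 147, 103 and 85.8 CPM against 55.2, 43.0 and 43.9 CPM (log2 fold change 1.2 ± 0.18, edgeR adjusted p = 8.56e-09). Fyn was at 225, 219 and 333 CPM against 110, 119 and 162 CPM (0.94 ± 0.11, edgeR adjusted p = 1.69e-13). In both, every Gpr17-high value was above every reference value, which only describes genes already picked by the test. Bcas1, an early marker of myelinating cells, was at 116, 147 and 149 CPM against 33.1, 105 and 106 CPM, and Lims2 at 426, 505 and 519.5 CPM against 199, 409 and 293 CPM. Their log2 fold changes were 0.52 ± 0.13 and 0.49 ± 0.09 (edgeR adjusted p = 0.0148 and 1.37e-05). Lims2 lies on the + strand and encloses Gpr17, on the − strand, in GRCm38, and the sources used here do not state whether strand was used in counting, so reads of one could count for the other. The list members Neu4, Sox4, Tns3 and Nfasc did not pass the test, with log2 fold changes of 0.19, 0.06, 0.48 and 0.40.

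Promoters of Bmp4, Mycl and Fyn, the 3 committed-stage genes with the largest called differences, are shown because these genes were higher together in the Gpr17-high cells. Each run covers 250 bases before and 50 after the RefSeq start of the gene in GRCm38.p6, read on the gene's strand. The Bmp4 promoter spans chromosome 14, 46390620 to 46390919 (− strand), that of Mycl chromosome 4, 122995681 to 122995980 (+ strand), and that of Fyn chromosome 10, 39369549 to 39369848 (+ strand). They were searched on both strands for CAGCTG, an E-box bound by basic helix-loop-helix factors, and ACAAAG, a core recognized by Sox factors. Neither was found in these 3 windows, so no letters are in capitals, and 16.3% and 18.7% of 32851 promoters of the same length hold them.
Bmp4: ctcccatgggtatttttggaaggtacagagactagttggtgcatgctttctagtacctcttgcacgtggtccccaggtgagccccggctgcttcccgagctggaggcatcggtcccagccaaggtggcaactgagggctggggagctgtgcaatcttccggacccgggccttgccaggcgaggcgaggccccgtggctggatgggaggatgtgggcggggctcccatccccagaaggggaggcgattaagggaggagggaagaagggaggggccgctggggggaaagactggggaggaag
Mycl: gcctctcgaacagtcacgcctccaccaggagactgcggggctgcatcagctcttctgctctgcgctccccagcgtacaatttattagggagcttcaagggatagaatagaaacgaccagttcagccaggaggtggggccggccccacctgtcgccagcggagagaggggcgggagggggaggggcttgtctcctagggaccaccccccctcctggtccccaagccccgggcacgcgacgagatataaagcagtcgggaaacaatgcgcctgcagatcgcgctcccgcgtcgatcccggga
Fyn: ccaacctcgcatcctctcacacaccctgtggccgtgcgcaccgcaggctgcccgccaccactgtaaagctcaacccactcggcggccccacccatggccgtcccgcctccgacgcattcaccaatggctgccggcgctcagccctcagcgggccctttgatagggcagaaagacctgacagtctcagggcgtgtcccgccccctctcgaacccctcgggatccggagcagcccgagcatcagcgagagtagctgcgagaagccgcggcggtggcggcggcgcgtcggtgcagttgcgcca

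Of 10 myelin genes tested, 4 were higher and 1 lower (median log2 fold change 0.28), where 0.239% of all genes were higher and 0.462% lower. Cnp was at 465, 381 and 524 CPM in Gpr17-high cells at 3, 14 and 24 months and at 210, 271 and 249 CPM in reference cells (log2 fold change 0.71 ± 0.09, edgeR adjusted p = 2.48e-11). The groups did not overlap, in a gene likewise picked by the test. Mbp was at 23.2, 33.7 and 172 CPM against 11.0, 28.7 and 23.9 CPM, and its difference came mainly from the aged library (1.27 ± 0.22, edgeR adjusted p = 3.55e-06). Cldn11, a tight junction protein of myelin that is also among the 4, had 32 UMIs in 13 Gpr17-high cells and 3 in the reference cells. It reached the minimum of 10 UMIs only through the Gpr17-high cells, so its call adds nothing to its counts. The member that fell was Car2, a carbonic anhydrase that OPCs, oligodendrocytes and astrocytes can make, at 31.0, 17.2 and 4.86 CPM against 121, 51.6 and 31.9 CPM (−1.77 ± 0.28, edgeR adjusted p = 2.52e-07). Car2 was not called once cells with a UMI of Gja1, Gfap, Mlc1, Gjb6 or Aqp4 were left out of both classes. Of the genes of newly forming oligodendrocytes, 2 of 10 were called higher. Enpp6, 1 of them, reached the UMI minimum through the Gpr17-high cells alone, so its call adds nothing to its counts. Sirt2, a deacetylase of the myelin sheath, had a log2 fold change of 0.42 ± 0.08 (edgeR adjusted p = 3.38e-05). Enpp6, with 30 UMIs against 0, was at least 10.3-fold higher when the reference sum was set at a floor of 3 UMIs over the group, and it had none in the adult library. Tcf7l2, a partner of Wnt signalling in this stage, did not pass the test (0.26).

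Other genes called higher were cytoskeletal or less tied to this lineage. Tuba1a, an alpha-tubulin, was at 4144, 3397 and 3309.9 CPM against 2131, 2910.2 and 2406 CPM (log2 fold change 0.45 ± 0.08, edgeR adjusted p = 3.38e-06). Tmsb4x, an actin-binding peptide, changed by 0.42 ± 0.08. Plekhf1, a protein of endosomes, Car8, a relative of the carbonic anhydrases, and S100a6, a calcium-binding protein, changed by 0.89 ± 0.24, 0.49 ± 0.13 and 0.46 ± 0.10. Cdkn1c, an inhibitor of cell cycle entry, was also higher (0.69 ± 0.18, edgeR adjusted p = 0.0192), though not in the adult library (54.2 against 55.2 CPM). Gm13075 was called with 2.68, but 120 of its 126 UMIs in the aged library came from 1 cell, which held 3 UMIs of Gpr17.

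**Figure D3:**
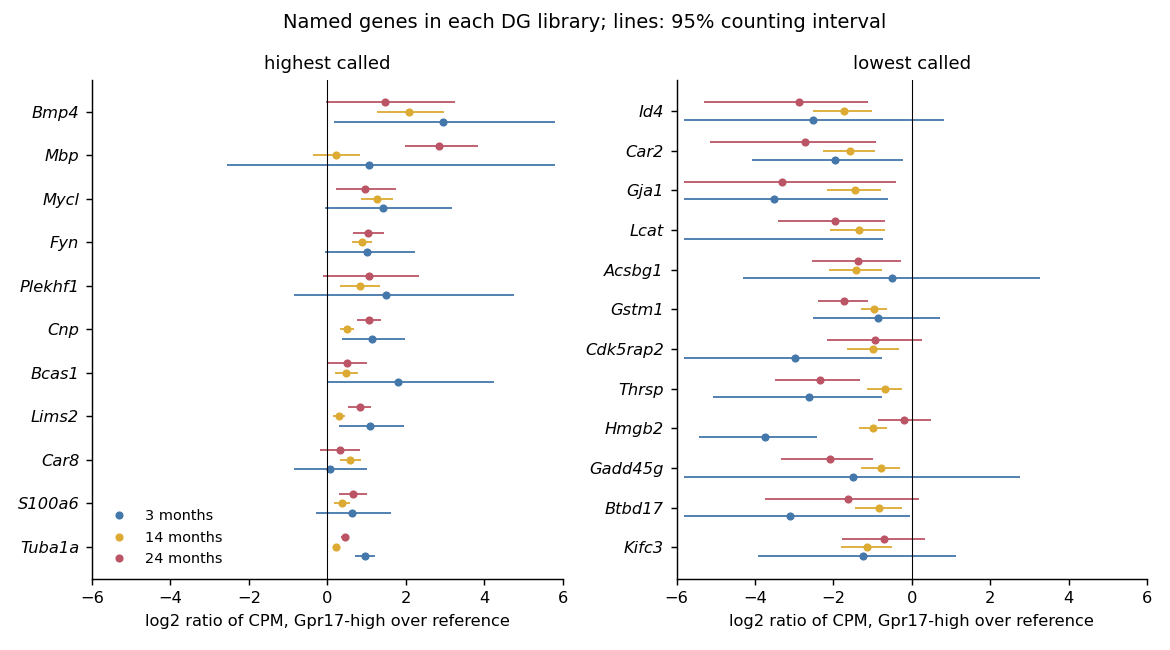
Log2 ratio of CPM between Gpr17-high and reference cells (horizontal axis) for 11 of the 12 highest and for the 12 lowest called genes, with 1 point for each DG library and 95% counting intervals as lines, which end at the axis limits where they run further; Lcat has no adult point because its Gpr17-high count was 0. Points lie on 1 side of 0 within each gene, as the choice of genes required.

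When the 16 cells with 10 or more Gpr17 UMIs were left out, 6 of 12072 genes (0.0497%) were called higher and 42 (0.348%) lower, and 47 of these 48 calls were among the 85. Mycl was still higher (log2 fold change 0.80, edgeR adjusted p = 0.0127). Lims2 was at 0.14, Fyn at 0.26, Cnp at 0.17, Mbp at 0.26 and Bmp4 at 0.89, and none of these passed the test (edgeR adjusted p of 0.945 or more). Calls of higher genes went from 5 to 1 of 16 committed-stage markers and from 4 to 1 among the myelin genes, and the lists of newly forming oligodendrocyte, BMP and Wnt, extracellular matrix and cytoskeletal genes kept no higher call. The log2 ratio of the summed committed-stage markers was 0.61, 0.036 and 0.093 at 3, 14 and 24 months without the 16 cells and 0.63, 0.21 and 0.34 with them, and that of the myelin genes 0.82, 0.11 and 0.31 against 0.83, 0.54 and 1.26. The 16 cells held 55.2% of the Bmp4, 40.6% of the Fyn, 27.6% of the Mycl and 25.4% of the Lims2 UMIs of all Gpr17-high cells, and 7.90% of those of Car8.

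None of the 15 tested OPC markers was called in either direction, beside 0.239% of all genes called higher and 0.462% lower, and their median log2 fold change was 0.04. A count of 0 in 15 is near that background. Cspg4 was at 287, 287 and 312 CPM against 309, 278 and 303 CPM, and Ptprz1, a receptor phosphatase of OPCs, at 0.05 ± 0.08 in log2 fold change. C1ql1, a secreted synaptic protein made by OPCs, was at 0.20 ± 0.08 (edgeR adjusted p = 0.539). Among 25 transcription factors of the lineage, Id4 was lower and none was higher. Olig1, Olig2, Sox10, Nkx2-2 and Myrf were at 0.05, 0.11, 0.05, 0.16 and 0.43, none of which passed the test. A p above the threshold does not show that these levels were equal.

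Receptors and signalling genes close to Gpr17 were also not called, where 0.239% of all genes tested were called higher and 0.462% lower. A list of this size without a call is near that background. Of 15 purinergic, leukotriene and related receptors, 7 had enough UMIs to be tested, and 6 were at 0 in all 6 sums, among them P2ry4, P2ry6, P2ry13, Cysltr1 and Cysltr2. The most abundant was Gpr37l1, an orphan receptor, at 1247, 1202 and 1196 CPM against 1369, 1229 and 1239 CPM. None of 30 tested genes of G protein and cAMP signalling was called. In the BMP and Wnt pathways, Bmp4 rose and Id4 fell among 31 tested genes, and in mitogen signalling Cdkn1c rose and Ccnd2, the D2 cyclin, fell among 21 (−0.93 ± 0.14, edgeR adjusted p = 1.02e-07). The Cdkn1c call was lost without the 16 highest cells (0.60, edgeR adjusted p = 0.164), and that of Ccnd2 without cells holding Gja1, Gfap, Mlc1, Gjb6 or Aqp4 (−0.61, edgeR adjusted p = 0.168). Genes of ion channels and transmitter receptors (29 tested) and of the interferon response (19) had no call, which is also near that background. Extracellular matrix genes had 1 of 28, Lims2, which that list also holds. Cytoskeletal genes had 2 higher and 2 lower of 34, and genes of cholesterol and fatty acid synthesis 1 lower of 31, Msmo1. Neither lower cytoskeletal gene was called without the 16 highest cells, and Msmo1 was not called without cells holding those astrocyte genes.

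Of the 56 genes lower in Gpr17-high cells, 11 were in the lists of astrocyte markers and cell cycle genes. All 7 calls among the 12 astrocyte markers were lower (median −0.69), where 0.462% of all genes tested were called lower. Gja1, the connexin that couples astrocytes, was at 7.75, 16.5 and 1.62 CPM against 88.3, 45.3 and 16.0 CPM (−1.72 ± 0.32, edgeR adjusted p = 2.52e-05). Id4, an inhibitor of differentiation also made by astrocytes and stem cells, was at 7.75, 13.2 and 4.86 CPM against 44.2, 44.1 and 35.9 CPM (−1.96 ± 0.32, edgeR adjusted p = 5.97e-07). Gfap, Mlc1 and Slco1c1 changed by −2.66, −2.32 and −2.40, and the abundant Slc1a3, Aldoc and Clu by −0.55, −0.36 and −0.33. Of the other named genes, Lcat, which esterifies cholesterol, changed by −1.62, Acsbg1, an acyl-CoA synthetase, by −1.36, Gstm1, a glutathione transferase, by −1.15, and Thrsp, a regulator of fat synthesis, by −1.13.

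The UMIs of 5 astrocyte genes came mostly from few reference cells. A UMI of Gja1, Gfap, Mlc1, Gjb6 or Aqp4 was found in 65 of 441 Gpr17-high cells (14.7%) and in 71 of 482 reference cells (also 14.7%). However, 14 reference cells with at least 10 such UMIs held 293 of the 370 UMIs, and 2 Gpr17-high cells held 38 of 114. Within the reference cells, Gja1 was at 79.8 CPM without a Gpr17 UMI and at 1.71 CPM with 1. The summed astrocyte markers were at 3222, 3702 and 4087 CPM in Gpr17-high cells and at 4593, 4375 and 4744 CPM in reference cells, their most abundant gene was S100b, and none of the 12 was at 0. After both classes were stripped of cells with a UMI of any of the 5 genes, 18 of 11840 genes (0.152%) were called higher and 6 (0.0507%) lower, and all 24 were among the 85. None of the 7 astrocyte markers then tested was called, Id4, Gstm1 and Thrsp were at 0.12, 0.22 and 0.28, and Bmp4, Fyn and Lims2 were still called at 2.25, 0.98 and 0.49. Without these cells and without the 16 highest cells, 4 of 11810 genes (0.0339%) were higher and 3 (0.0254%) lower. Gm13075, S100a13 and Ptgds were among the former, and Ldha, Tubb3 and Hmgb2 were the latter.

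Cell cycle genes had 4 calls of 34 tested, all lower, and a median of −0.64, where 0.462% of all genes tested were called lower. Hmgb2, a chromatin protein of dividing cells, was at 38.7, 60.8 and 66.4 CPM against 519, 121 and 75.8 CPM (−1.08 ± 0.15, edgeR adjusted p = 1.09e-09). Cdk1, Ube2c and Rrm2 were lower in the fit as well, at −2.39, −1.97 and −1.97. Without the astrocyte-gene cells only Hmgb2 was still called of 31 tested (−0.79, edgeR adjusted p = 0.00378). Their direction was not shared by the aged library, where Ube2c had 11 UMIs in Gpr17-high and 0 in reference cells, and Cdk1 6 and 0. A UMI of Mki67, Top2a, Cdk1, Ube2c or Rrm2 was found in 4.76% of Gpr17-high cells and 8.71% of reference cells (95% Clopper-Pearson intervals 2.97 to 7.19 and 6.35 to 11.6), and in 2.04% and 3.53% with cells thinned to 1500 UMIs. In the adult library 1 reference cell held 55 of the 59 such UMIs, and in the aged library 1 Gpr17-high cell held 35 of 43. None of the 16 highest cells held one, where the floor of 3 counts would be 18.8% of them. So few cells set no limit on the share that make these RNAs. The early response genes Fos and Dusp1 were lower too, at −0.75 ± 0.14 and −0.78 ± 0.19, and Fos in the adult library was higher, with 6 UMIs against 0. Without the astrocyte-gene cells, Fos was at −0.28 and Dusp1 at −0.64 and neither was called.

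Mature neuron markers summed to 1239, 1236 and 1301 CPM in Gpr17-high cells and 1303, 1378 and 1141 CPM in reference cells, their most abundant gene was Meg3, and none of the 6 tested was called. Among 8 tested neuroblast genes Tubb3 alone was called, at −0.36 ± 0.10, and it was higher in the adult library, at 178 against 132 CPM. Without the 16 highest cells Tubb3 was not called, while without the astrocyte-gene cells it was. Dcx was at 54.2, 37.0 and 40.5 CPM against 44.2, 45.9 and 33.9 CPM and did not pass the test. Microglial markers summed to 108, 62.8 and 55.0 CPM against 66.2, 59.1 and 47.9 CPM, with 3 of 11 at 0. Vascular and fibroblast markers summed to at most 12.0 CPM. Ribosomal protein genes, with 78 tested, had no call and a median of 0.006. Lists of these sizes without a call are near the background of 0.239% of all genes higher and 0.462% lower.

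**Figure D4:**
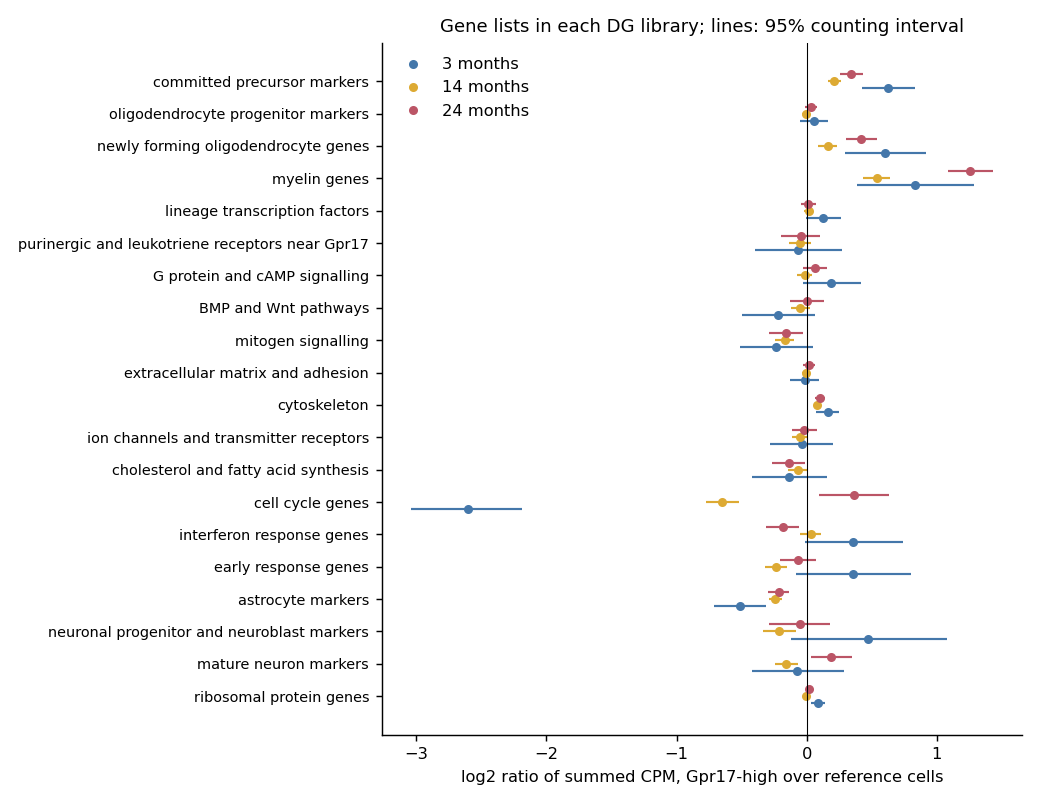
Log2 ratio of summed CPM between Gpr17-high and reference cells (horizontal axis) for 20 gene lists, without their gate genes, with 1 point for each DG library and 95% counting intervals as lines. Committed precursor, newly forming oligodendrocyte and myelin genes lie above 0 and astrocyte markers below 0 in all 3 libraries, while cell cycle genes run from −2.60 in the adult to 0.36 in the aged library. Without the 16 cells of 10 or more Gpr17 UMIs the committed precursor values at 14 and 24 months were 0.036 and 0.093.

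Ages were compared by single libraries, so no test was possible and intervals cover counting error only. Of the Gpr17-high and reference cells together, Gpr17-high cells made up 59.2% at 3 months, 45.2% at 14 months and 53.3% at 24 months (95% Clopper-Pearson intervals 44.2 to 73.0, 41.3 to 49.1 and 46.3 to 60.2). With each cell thinned to 1500 UMIs before classification the shares were 25%, 14.0% and 19.4%. Under the rule of at least 2 Gpr17 UMIs the intervals of all 3 libraries overlapped, with and without thinning. With at least 3 UMIs the shares were 47.4%, 28.3% and 44.3% (intervals 31.0 to 64.2, 24.5 to 32.5 and 36.8 to 52.0), and those of the middle-aged and aged libraries did not overlap. Of all DG cells that passed the filters, Gpr17-high cells were 4.13%, 29.0% and 38.6%, while reference cells were 20 of 702, 364 of 1035 and 98 of 290. Cells with 5 or more Gpr17 UMIs made up 20.7%, 14.7% and 33.0% of Gpr17-high cells (intervals 7.99 to 39.7, 10.9 to 19.2 and 24.4 to 42.6), again without overlap between the middle-aged and aged libraries, and those with 10 or more 3.45%, 3.67% and 3.57%.

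**Figure D5:**
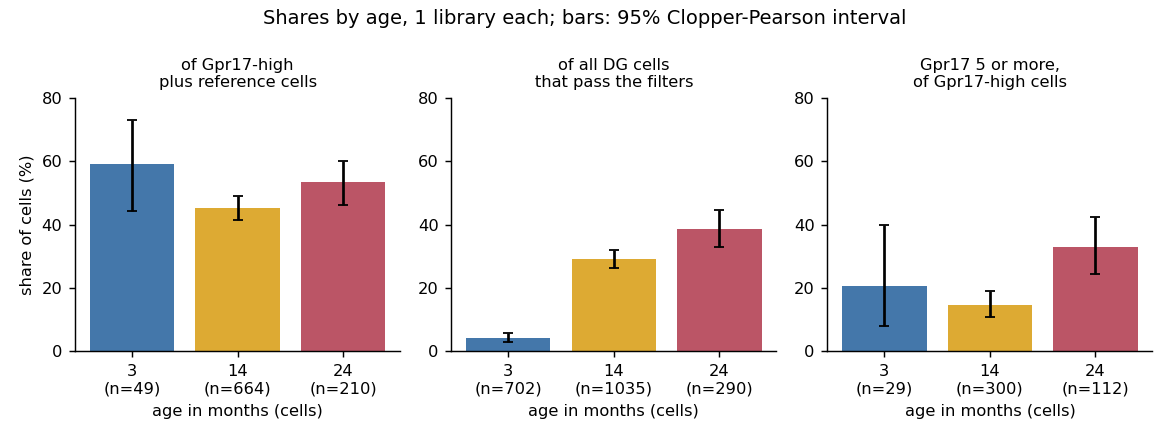
Share of cells in percent at 3, 14 and 24 months, 1 library each, with the number of cells that form the denominator in brackets and 95% Clopper-Pearson intervals as bars. Gpr17-high cells were between 45.2% and 59.2% of both classes at each age, and from 4.13% to 38.6% of all DG cells.

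Within Gpr17-high cells, 60 of 2964 genes (2.02%) were past 2-fold higher and 24 (0.81%) lower in aged than in adult mice with an interval clear of 0, and 52 of 5660 (0.919%) and 56 (0.989%) were so in middle-aged mice. The balance of higher and lower genes moved with the UMI minimum. With a minimum of 20 UMIs 101 were higher and 99 lower in aged mice and 52 and 107 in middle-aged mice, and with one of 100 UMIs 24 and 2, and 37 and 14. Reference cells of the same libraries had 60 and 37 of 2367, and 56 and 90 of 6048. Both comparisons share the 29 adult cells. Mbp was at 172 CPM in aged and 23.2 CPM in adult cells (3 UMIs), a log2 ratio of 2.88 with an interval from 1.30 to 5.18. That interval treats UMIs as independent, though 62 of the 106 aged UMIs were in 1 cell. In aged cells with 2 to 9 Gpr17 UMIs Mbp was at 55.4 CPM. Gng11, a G protein gamma subunit, was at 236 against 69.7 CPM (log2 ratio 1.76), and at 241 against 66.2 CPM in reference cells. Xist, the RNA of the inactive X chromosome of female cells, was at 1081 against 333 CPM, and at 938 against 298 CPM in reference cells. A Xist UMI was found in 4 of 29 adult, 113 of 300 middle-aged and 74 of 112 aged Gpr17-high cells. The make-up of the pools by sex and the age of the mice cannot be told apart here, for Xist or any other gene compared between ages. Gm13075 was at 204 CPM in aged and had no UMI in adult cells, with the 120 UMIs of 1 cell. Like Gm13075, Mbp, Gng11 and Xist reached the minimum of 100 UMIs through the aged library, with 3, 9 and 43 UMIs in adult cells. No difference with age is drawn from these genes. Ndn and Brinp1, which restrain the cell cycle in neural cells, were lower in aged mice, at 115 against 287 CPM and 165 against 356 CPM. In reference cells, Ndn was at 99.7 against 199 CPM and Brinp1 at 172 against 177 CPM.

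In middle-aged over adult cells, the 4 highest were Nudt21, Igfbp2, Ik and Ebf1, with log2 ratios of 3.43, 2.47, 2.43 and 2.24. Each had 1 or 2 UMIs in the adult cells and 111 to 130 in the middle-aged cells. These 4 genes reached the UMI minimum through the middle-aged library alone, which held far more UMIs than the adult library. Their ratios rest on 1 or 2 adult UMIs, so no difference with age is drawn from them. In reference cells these 4 were at −0.15, −0.40, 0.61 and 1.00. The 4 lowest were Syngr3, Trpc4ap, Spry2 and Mmp15, between −1.35 and −1.10, with 18 to 22 UMIs in the adult cells. None of these 8 was past 2-fold with an interval clear of 0 in the reference cells. By that measure 56 of 6048 genes were higher and 90 lower in reference cells, so 0 of 8 is near that background.

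Gpr17 itself had a log2 ratio of −0.11 in aged and −0.31 in middle-aged over adult Gpr17-high cells, and Pdgfra of −0.0017 and −0.31. Bmp4 was lower at both ages, with log2 ratios of −1.63 (interval −2.81 to −0.39) and −1.13 (−2.07 to −0.05), on 11 UMIs from 5 adult cells. Summed myelin genes were at 1177, 1089.7 and 1706 CPM at 3, 14 and 24 months in Gpr17-high cells. Without the cells of 10 or more Gpr17 UMIs, 4 of them aged, the order turned, at 1173, 813 and 884 CPM, and the log2 ratio of aged over adult went from 0.53 (0.29 to 0.79) to −0.41 (−0.68 to −0.13). Committed-stage markers were at 4872, 4447 and 4304 CPM. Interferon response genes were at 1317, 1560.2 and 1687 CPM, and in reference cells at 1027, 1528 and 1917 CPM. Early response genes were at 961, 1307 and 1546 CPM, and in reference cells at 751, 1543 and 1619.8 CPM. OPC markers were nearly level, at 13843, 13676 and 14128 CPM.

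The same rule found 50 Gpr17-high and 88 reference cells in the SVZ and 9 and 12 in the OB. The middle-aged SVZ had 9 Gpr17-high cells, too few by the limit set for a fit (10 cells), so pooled SVZ values are given without a test. By the study's methods all regions of an age were taken from the same mice, so the SVZ is not an independent sample of animals. Pdgfra, which the rule required only of reference cells, was at 744 CPM in SVZ Gpr17-high and 572 CPM in SVZ reference cells. In the DG reference cells it was between 842 and 1126 CPM, so the reference classes of the 2 regions were not alike. Of the 12 highest DG genes, 11 had the same sign in the SVZ, 8 of them with an interval clear of 0. How far the make-up of the SVZ reference cells set these signs was not tested. Of the 12114 genes tested in the DG, 52.7% were above 0 in the SVZ, 7.28% with an interval clear of 0, and 45.7% were below, 5.94% with an interval clear of 0. Bmp4 was at 57.2 against 5.6 CPM, Lims2 at 614 against 273 CPM and Fyn at 198 against 101 CPM. Tuba1a went the other way, at 3099 against 4741 CPM. Of the 12 lowest, 7 had the same sign, a share near that of all genes below 0. The interval was clear of 0 for 4 of them, among them Hmgb2, at 111 against 1304 CPM. Ccnd2 was at 134 against 2219 CPM in the SVZ. In the few OB cells Hmgb2 went the other way, at 503 against 242 CPM, while Ccnd2 was at 126 against 778 CPM. Gja1 had 0 and 1 UMI in the SVZ classes. Enpp6 had no UMI in either class of the SVZ or OB.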

How the data were processed

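Single-cell RNA of GFP-sorted cells was measured in 9 libraries (3 regions at 3, 14 and 24 months), of which the 3 of the DG were analysed in depth. The deposited values are raw UMI counts per gene and barcode, which the authors made with Cell Ranger 3.0.2 on mm10 with cell barcodes already chosen. The annotation and the use of strand are not given in the sources used here. Barcodes with at least 1500 UMIs and at most 10% mitochondrial UMIs were kept. Doublets were called with Scrublet (scanpy 1.11.5) and kept in the main values.

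UMIs were summed per library and class. Genes with at least 10 UMIs over the 6 sums and a UMI in at least 2 libraries were tested with edgeR 4.0.16 (quasi-likelihood, TMM, Benjamini-Hochberg adjustment, R 4.3.3), with the library as a block, since both classes of a library come from the same pool of mice. The p-values rest mostly on counting error and on the little spread estimated between these 3 pooled libraries, and not on the spread between mice. DESeq2 1.42.0 was an alternative. The fit was also run on simulated sums per library and class with a fixed small spread. Those sums held no single cells and no rule on Gpr17, so they cannot show calls that arise from either. Ages were compared by CPM with exact conditional binomial 95% intervals in genes whose 2 sums held 50 UMIs or more, and shares by Clopper-Pearson intervals, which cover counting error only. A count of 0 was read against a floor of 3 counts. Coordinates are from GENCODE vM21.

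Named genes were the 12 highest and 12 lowest called genes with at least 100 UMIs and the same sign in the 3 libraries, up to 4 called members of each of 22 gene lists with the members described as not called, the 4 highest and 4 lowest, where so many passed, past 2-fold in each age comparison among genes of 100 UMIs or more, and Dcx. Some named items are not reported here. Other named genes (S100a13, Ptgds and Ldha, the cells with 10 or more Gpr17 UMIs and their genes) were chosen after values were seen. The members and lists were chosen with earlier results of these data known.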

Additional observations from a re-analysis of the deposited data

Results flagged for a closer look

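Ube2c, a ubiquitin-conjugating enzyme of mitosis, was singled out because libraries of different ages moved in opposite directions, each with a counting interval clear of 0. Its log2 ratio between Gpr17-high and reference cells was −3.25 in the adult library, with a count of 0 in Gpr17-high cells set to the floor of 3 counts, −3.04 in the middle-aged library, and 1.57 in the aged library, with a count of 0 in reference cells set to that floor. The summed cell cycle genes were at −2.60, −0.65 and 0.36, but the aged value turned to −0.80 with Gpr17 at 5 or more and to −1.20 with every cell thinned to 1500 UMIs before classification. Of the 43 UMIs of Mki67, Top2a, Cdk1, Ube2c and Rrm2 in aged Gpr17-high cells, 1 cell held 35. The mature neuron markers were at −0.16 at 14 months and 0.19 at 24 months, and both signs turned with thinning before classification, to 0.092 and −0.073. With 1 library per age, these differences between ages were not tested.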

How the results depend on the processing

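Each alternative changed 1 choice, except 1 that combined 2, and those that left out cells with 10 or more Gpr17 UMIs, left out cells with astrocyte genes, or asked for 2 Pdgfra UMIs in reference cells were chosen after seeing the data. The 85 calls in the DG became 4 with every cell thinned to 1500 UMIs before classification, 10 with thinning after it, 48 with Gpr17 at 2 to 9 UMIs, 27 with reference cells of at least 2 Pdgfra UMIs, 24 without astrocyte-gene cells, 7 with both of the latter exclusions (Gpr17 2 to 9 and no astrocyte-gene cells), 8 with the Wald test of DESeq2 (87 at an unadjusted p under 0.05) and 40 with no replicate block. Leaving out 1 library gave 17 (without the middle-aged) to 77 calls (without the adult), and 35 without the aged. The cause of these changes was not tested. Of 1051 values of 48 named genes under alternatives, 707 kept direction and side of the threshold, 325 lost the call and 19 changed sign. With thinning before classification Car8 was at −0.024, Acsbg1 at 0.15, Msmo1 at 0.079 and Gm13075 at −6.18. Without astrocyte-gene cells, and then also with Gpr17 2 to 9, Id4 was at 0.12 and 0.19, Gstm1 at 0.22 and 0.24, Thrsp at 0.28 and 0.36, and Clu at 0.020 and 0.073. With 2 Pdgfra UMIs in reference cells Gja1 was at 0.93, Gstm1 at 0.019, Thrsp at 0.69 and Clu at 0.047. Gm13075 was at −0.50 with Gpr17 at 5 or more. Leaving out 1 library, Stmn1 ranged from −0.64 to 0.026 (without the middle-aged) and Gm13075 from −0.60 (without the aged) to 4.02.

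The share of Gpr17-high cells at 3, 14 and 24 months was 23.1%, 10.8% and 27.4% with Gpr17 at 5 or more, 74.4%, 61.6% and 73.2% against reference cells without Gpr17, 25%, 14.0% and 19.4% with thinning before classification, and 4.13%, 29.0% and 38.6% of all DG cells. With Gpr17 at 3 or more it was 47.4%, 28.3% and 44.3%. Under these higher limits, cells with at least 2 Gpr17 UMIs but fewer than the limit were in neither class, and the cells were not thinned. The intervals at 14 and 24 months did not overlap with Gpr17 at 3 or more (24.5 to 32.5 and 36.8 to 52.0) or at 5 or more (7.95 to 14.2 and 20.1 to 35.7). The 84 of 2964 genes (2.83%) past 2-fold at 24 over 3 months became 39 of 946 (4.12%) with Gpr17 at 5 or more, 12 of 108 (11.1%) and 12 of 695 (1.73%) with thinning before and after classification, 200 of 6218 (3.22%) with a minimum of 20 UMIs and 26 of 1417 (1.83%) with one of 100 UMIs. The 108 of 5660 (1.91%) at 14 over 3 months became 31 of 1055 (2.94%) with Gpr17 at 5 or more, 10 of 304 (3.29%) and 51 of 1995 (2.56%) with the same thinnings, and 51 of 3280 (1.55%) with a minimum of 100 UMIs. Fewer genes reached the UMI minimum under all of these but the minimum of 20. Of the 22 gene lists, 11 had the same direction in the 3 libraries, and 17 with Gpr17 at 5 or more. The 11 include lists near 0, such as the lineage transcription factors at 0.13, 0.016 and 0.011, and 25.1% of single genes tested had the same sign in all 3. Thinned to 1500 UMIs, the share of Gpr17-high cells with a UMI was 43.1% for Lims2, 19.95% for Fyn, 18.8% for Bcas1, 2.95% for Bmp4, 52.2% for Sox10 and 36.3% for Cspg4. The fit planned for the SVZ was not run because 1 library had 9 Gpr17-high cells. The 29 adult cells, with 129093 UMIs, limit every comparison of older with adult Gpr17-high cells.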
